A study of Homo sapiens with 9 samples.

Results

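The messages of 9 proteins that read m6A, the methylation of adenosine inside RNA, were followed in 22Rv1 cells in which CHD9 was targeted by a short hairpin RNA. The 9 genes, YTHDF1, YTHDF2, YTHDF3, YTHDC1, YTHDC2, IGF2BP1, IGF2BP2, IGF2BP3 and FMR1, were taken by symbol from a count table of 67071 gene identifiers, each symbol matching its own Ensembl identifier. Of these, 8 had enough reads to be tested, among 16855 genes tested in all, and YTHDC1 was listed at 0. 22Rv1 is a human prostate carcinoma line that expresses the androgen receptor. The 9 libraries of polyadenylated RNA form 3 groups of 3, which are cells with CHD9 hairpin 1 (shCHD9_1), cells with CHD9 hairpin 2 (shCHD9_2) and control cells with a hairpin against GFP (shGFP). The labels give all 3 groups the wild-type genotype and the same medium with serum. They name no time after the hairpins were introduced, no selection, and do not say whether replicates are separate cultures, so what the p-values measure is how far these libraries spread, and that spread may be technical. The series concerns editing of m6A with METTL3, and its design text names the comparison of control knockdown with CHD9 knockdown.

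Readers are the proteins that turn the methyl mark into an outcome for the message. A complex built on METTL3 and METTL14 writes the mark, and the demethylases FTO and ALKBH5 remove it. Proteins with a YTH domain bind the methylated adenosine directly: the YTHDF proteins act in the cytoplasm on decay and translation, YTHDC1 acts in the nucleus on splicing and export, and YTHDC2 is a helicase best known from germ cells. The IGF2BP proteins bind RNA through KH domains and are known to stabilise their messages. IGF2BP1 and IGF2BP3 are called oncofetal because adult tissues make little of them and many tumours make more. FMRP, the product of FMR1, is a regulator of translation whose loss causes fragile X syndrome, and it too prefers methylated RNA in several binding studies.

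Libraries held 18911142 to 31968602 counts. The chi-square over its degrees of freedom was 1.72 to 2.86 for pairs within a group and at least 9.68 for pairs from different groups, and no library was set aside. CHD9, a chromodomain helicase and the target of the hairpins, was lower in every knockdown library, at 14.8, 16.7 and 14.9 CPM (counts scaled to library size) with hairpin 1 and 18.4, 18.8 and 19.3 CPM with hairpin 2, against 22.8, 20.6 and 23.2 CPM in shGFP. The log2 fold change was -0.52 with hairpin 1 (SE 0.07) and -0.24 with hairpin 2 (SE 0.07), with adjusted p = 7.2e-08 and 0.0060 in edgeR's quasi-likelihood test with Benjamini-Hochberg adjustment over all genes tested. Without shGFP replicate 3 the hairpin 2 call was lost (log2 fold change -0.20, edgeR adjusted p = 0.054). Markers of prostate luminal cells, 9 in all, summed to 2159 to 2186 CPM with hairpin 1 and 2033 to 2058 CPM with hairpin 2, against 1871 to 1908 CPM in shGFP, and 0 of these 9 markers were at 0 in all libraries. Summed markers of basal, endothelial and leukocyte cells stayed at or below 0.154 CPM. Those of fibroblasts summed to 7.04 to 7.76 CPM with hairpin 1 and 6.82 to 7.78 CPM with hairpin 2, against 4.93 to 5.32 CPM in shGFP. Almost all of this was COL1A1 (log2 fold change 0.52 for the mean of both hairpins, edgeR adjusted p = 6.0e-05), COL1A2 and PDGFRA were too low to be tested, and the part of these markers in the results was not tested. In bulk RNA of this kind, fewer cells of a type and less RNA per cell cannot be told apart.

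In shGFP cells the readers covered a wide range per length, from 112 TPM (counts scaled to gene length and library size) for YTHDF2 down to 12.1 TPM for IGF2BP1. YTHDF2 had 112 ± 1.10 TPM and YTHDF1 108 ± 3.56 TPM (SD, n = 3 each), and the libraries of these neighbours overlapped. YTHDF3 followed at 59.8 ± 1.76 TPM and IGF2BP3 at 26.5 ± 0.782 TPM (SD, n = 3 each), each apart from its neighbours in every library. IGF2BP2 at 17.5 ± 1.15 TPM, YTHDC2 at 16.3 ± 0.343 TPM and FMR1 at 16.2 ± 0.957 TPM (SD, n = 3 each) overlapped one after another. IGF2BP1 was lowest at 12.1 ± 0.611 TPM (SD, n = 3). Among genes tested, these levels lay between percentile 48.8 for IGF2BP1 and percentile 91.0 for YTHDF2. The lengths are those of all annotated exons of a gene, and the order depends on them. With the longest transcript instead IGF2BP3 had 38.9 TPM, FMR1 21.9 TPM and YTHDC2 19.3 TPM in shGFP, and YTHDF1 lay further below YTHDF2.

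With CHD9 hairpins the readers did not move as a block: IGF2BP2 was higher, IGF2BP3, FMR1 and YTHDF3 were lower with either hairpin, and the most abundant readers, YTHDF1 and YTHDF2, had log2 fold changes of -0.06 to -0.09 in each comparison with shGFP. For the mean of both hairpins against shGFP, 7 of the 8 readers tested passed an adjusted p of 0.05, 1 of them higher and 6 lower, where 45.5% of all genes tested passed, 22.3% higher and 23.2% lower (edgeR quasi-likelihood test, Benjamini-Hochberg adjustment). With hairpin 1, 5 readers passed, 1 higher and 4 lower, beside 47.3% of all genes, 23.9% higher and 23.4% lower. With hairpin 2, 5 also passed, 1 higher and 4 lower, beside 35.7% of all genes, 17.2% higher and 18.5% lower. The median log2 fold change of the 8 readers was -0.11 for the mean of both hairpins, and that of all genes tested was 0.00. The median size of a log2 fold change, whatever its sign, was 0.19 for the readers and 0.17 for all genes. The 6 knockdown libraries did not overlap the shGFP libraries for 5 readers, 1 higher and 4 lower, which 31.7% of all genes tested also showed, 15.5% higher and 16.2% lower. The hairpin 1 libraries alone did not overlap shGFP for 6 readers, 1 higher and 5 lower, beside 53.9% of all genes, 27% higher and 26.9% lower. The hairpin 2 libraries alone did not overlap it for 6 readers either, 1 higher and 5 lower, beside 44.1% of all genes, 21.4% higher and 22.7% lower.

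**Figure D1:**
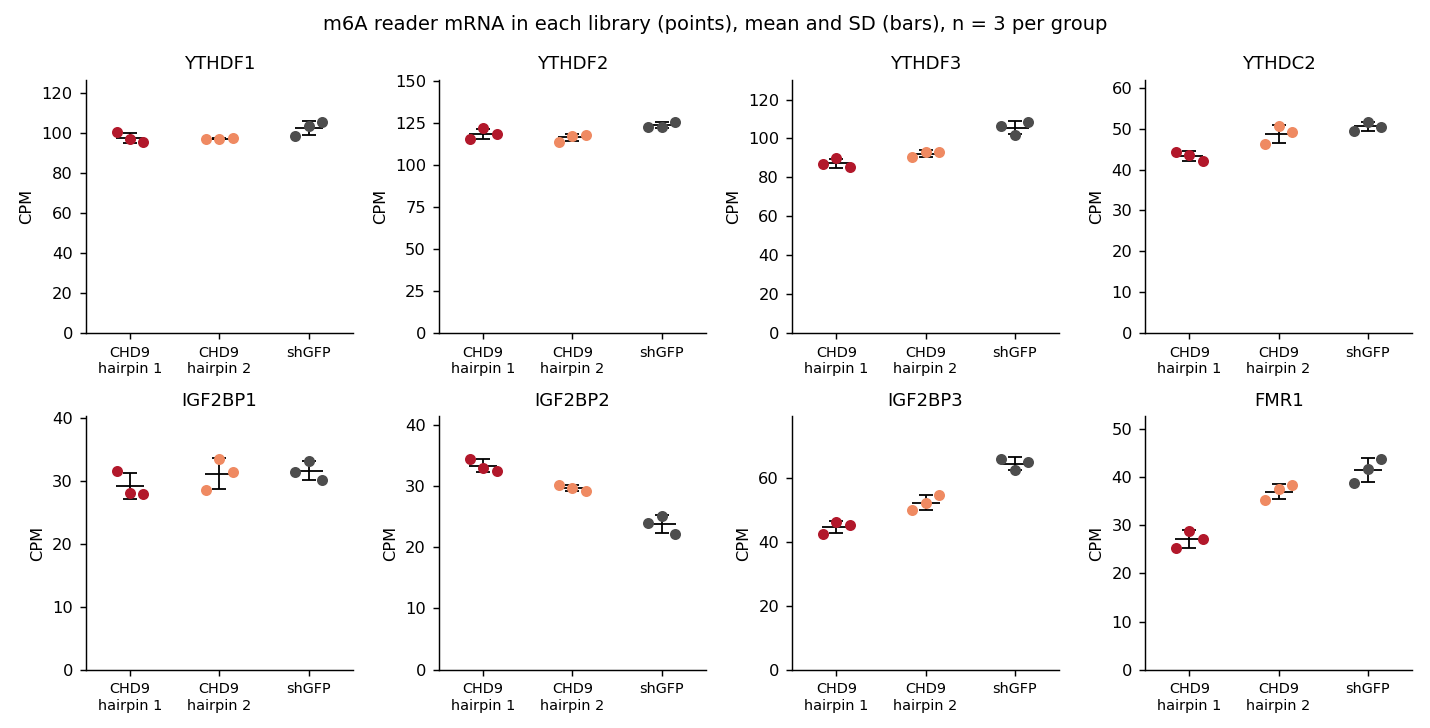
Reader mRNA in each library, in CPM on a linear axis that starts at 0, with 3 libraries for each of CHD9 hairpin 1, CHD9 hairpin 2 and shGFP. Points are libraries, and bars are the mean and SD. IGF2BP2 lies above shGFP in all 6 knockdown libraries, and IGF2BP3, FMR1, YTHDF3 and YTHDF2 lie below it.

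The IGF2BP family carried changes in opposite directions. IGF2BP2 (ENSG00000073792.16, chr3:185643739-185825056, minus strand, GRCh38) encodes a reader known to stabilise messages of growth and metabolism. IGF2BP2 had 34.5, 33.0 and 32.4 CPM with hairpin 1 and 30.2, 29.7 and 29.2 CPM with hairpin 2, against 24.0, 25.2 and 22.2 CPM in shGFP. Every hairpin 1 library lay above every hairpin 2 library, and every hairpin 2 library above shGFP. IGF2BP2 rose to a level 1.40 times that of shGFP under hairpin 1 (log2 fold change 0.49, SE 0.06, edgeR adjusted p = 3.7e-09). Under hairpin 2 it rose to 1.25 times the shGFP value (log2 fold change 0.32, SE 0.06, edgeR adjusted p = 2.4e-05).

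IGF2BP3 (ENSG00000136231.14, chr7:23310209-23470467, minus strand) encodes the paralogue that is known mainly from embryonic tissue and aggressive tumours. IGF2BP3 had 42.7, 46.5 and 45.3 CPM with hairpin 1 and 50.05, 52.3 and 54.7 CPM with hairpin 2, against 66.2, 62.5 and 65.2 CPM in shGFP. The order of the groups was that of IGF2BP2 turned round, again with no overlap. Under hairpin 1, IGF2BP3 fell to 0.695 of its value in shGFP (log2 fold change -0.53, SE 0.05, edgeR adjusted p = 3.4e-13). Under hairpin 2 the remaining share was 0.809 (log2 fold change -0.31, SE 0.04, edgeR adjusted p = 3.1e-07). Over 17.9% of its exonic length IGF2BP3 overlaps MALSU1, a mitoribosome assembly factor gene on the opposite strand, and the strand setting of the counting is not given. MALSU1 itself had 52.7 ± 1.03 CPM with hairpin 1 and 51.4 ± 1.81 CPM with hairpin 2, against 50.1 ± 3.16 CPM in shGFP (SD, n = 3 each; log2 fold change 0.06 for the mean of both hairpins, edgeR adjusted p = 0.24).

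IGF2BP1 (ENSG00000159217.10, chr17:48997412-49055650, plus strand) encodes the founding member, which binds and protects messages such as MYC. IGF2BP1 had 31.7, 28.1 and 27.9 CPM with hairpin 1 and 28.6, 33.6 and 31.4 CPM with hairpin 2, against 31.5, 33.2 and 30.2 CPM in shGFP. The 3 groups overlapped, and no comparison passed the test. The log2 fold change for the mean of both hairpins was -0.07 with a 95% interval of -0.17 to 0.04 (edgeR adjusted p = 0.34). That interval excludes changes of the size seen for IGF2BP2 and IGF2BP3 but not small ones.

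The make-up of the 3 IGF2BP messages shifted, and their sum was lower with hairpin 1. Summed, they had 52.2 ± 0.712 TPM with hairpin 1 and 55.5 ± 2.26 TPM with hairpin 2, against 56.1 ± 1.45 TPM in shGFP (SD, n = 3 each). All hairpin 1 sums (52.9, 52.2 and 51.4 TPM) lay below all shGFP sums (57.0, 56.9 and 54.4 TPM). The hairpin 2 sums (52.9, 56.7 and 56.9 TPM) overlapped those of shGFP. Sums and shares use all annotated exons and were not computed with the longest transcripts. IGF2BP2 made up 45.3 ± 0.702% of that sum with hairpin 1 and 39.6 ± 1.58% with hairpin 2, against 31.2 ± 1.34% in shGFP. IGF2BP3 made up 34.0 ± 1.88% with hairpin 1 and 38.8 ± 1.07% with hairpin 2, against 47.2 ± 1.99% in shGFP. IGF2BP3 was thus the leading member per length in each shGFP library and IGF2BP2 in each hairpin 1 library. The ratio of IGF2BP3 to IGF2BP2 was 0.689, 0.784 and 0.777 with hairpin 1 and 0.923, 0.981 and 1.04 with hairpin 2, against 1.53, 1.38 and 1.64 in shGFP. The ratio depends on the length used: with the longest transcripts it averaged 1.17 ± 0.0821 with hairpin 1 and 1.53 ± 0.0923 with hairpin 2, against 2.37 ± 0.200 in shGFP (SD, n = 3 each), so IGF2BP3 then led in all groups. These shares and ratios restate the changes tested above, and no further test was made.

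**Figure D2:**
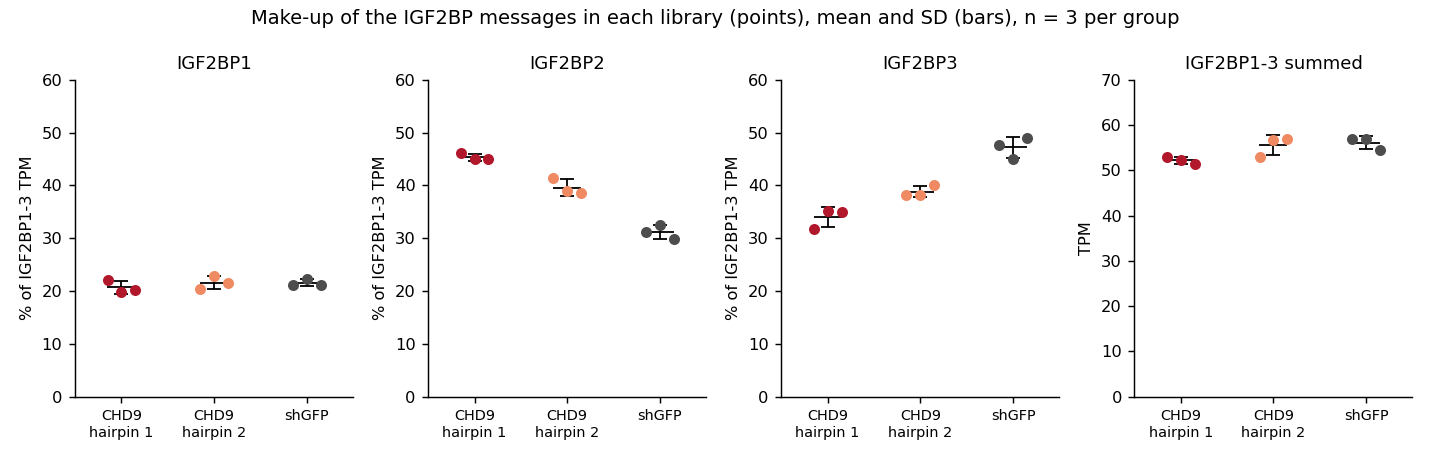
Share of each IGF2BP message in the TPM summed over IGF2BP1, IGF2BP2 and IGF2BP3 (%, the 3 panels from the left) and the sum itself (TPM, right), by library (points) with the mean and SD (bars), n = 3 per group. The share of IGF2BP2 is higher in both knockdown groups than in shGFP and that of IGF2BP3 lower, while the share of IGF2BP1 overlaps between groups.

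The bases in front of the genes whose readers changed most, IGF2BP2, IGF2BP3 and FMR1, are shown because these members moved in opposite directions. The sequences are from RefSeq on GRCh38.p14, 200 bases each, 5′ to 3′ on the strand of the gene and ending upstream of both the RefSeq and the GENCODE start. Capitals mark GC boxes (GGGCGG or its reverse complement CCGCCC, overlapping matches counted) and E-boxes (CACGTG, its own reverse complement).
IGF2BP2: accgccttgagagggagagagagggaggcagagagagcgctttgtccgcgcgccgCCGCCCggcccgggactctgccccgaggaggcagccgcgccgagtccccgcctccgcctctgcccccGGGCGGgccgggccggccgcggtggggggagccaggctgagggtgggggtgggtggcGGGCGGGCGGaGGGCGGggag
IGF2BP3: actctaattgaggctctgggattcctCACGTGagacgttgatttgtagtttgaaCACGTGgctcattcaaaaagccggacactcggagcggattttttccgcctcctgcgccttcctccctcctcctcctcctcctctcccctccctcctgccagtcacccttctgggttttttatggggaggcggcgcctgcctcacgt
FMR1: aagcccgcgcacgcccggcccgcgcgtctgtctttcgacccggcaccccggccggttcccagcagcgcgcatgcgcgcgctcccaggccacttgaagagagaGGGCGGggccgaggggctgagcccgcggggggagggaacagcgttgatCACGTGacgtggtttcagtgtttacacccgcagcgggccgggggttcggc
The stretches are chr3:185825057-185825256 on the minus strand for IGF2BP2, chr7:23470492-23470691 on the minus strand for IGF2BP3 and chrX:147911719-147911918 on the plus strand for FMR1. In the 250 bases before the RefSeq start, IGF2BP2 has 7 GC boxes and 0 E-boxes, IGF2BP3 has 0 GC boxes and 2 E-boxes, and FMR1 has 3 GC boxes and 1 E-box. Among 35116 RefSeq promoters, windows of the same length held a GC box in 42.6% and an E-box in 6.34%. None of the 3 windows holds CCAAT or TATAAA on either strand, which 32.0% and 10.7% of windows do. GC content over these 250 bases is 81.6% for IGF2BP2, 56.8% for IGF2BP3 and 72.4% for FMR1, beside a median of 58% over all windows. These matches describe the letters and do not show binding.

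FMR1 was the reader that differed most between the hairpins. FMR1 (ENSG00000102081.15, chrX:147911951-147951125, plus strand) had 25.3, 28.9 and 27.2 CPM with hairpin 1 and 35.3, 37.4 and 38.2 CPM with hairpin 2, against 38.7, 41.7 and 43.8 CPM in shGFP. All hairpin 1 libraries lay well below the rest, while the highest hairpin 2 library, at 38.2 CPM, came close to the lowest shGFP library. Under hairpin 1, FMR1 fell to 0.654 of its value in shGFP (log2 fold change -0.61, SE 0.06, edgeR adjusted p = 3.7e-12). Under hairpin 2 the remaining share was 0.889 (log2 fold change -0.17, SE 0.05, edgeR adjusted p = 0.013). The hairpin 2 call was lost without shCHD9_2 replicate 1 (log2 fold change -0.13), without shGFP replicate 3 (-0.12) and with a correction for GC content and length (-0.09, edgeR adjusted p = 0.16).

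YTHDF3 fell with either hairpin. YTHDF3 (ENSG00000185728.17, chr8:63168553-63212786, plus strand), which is known to work with both of its paralogues, had 86.6, 89.9 and 85.1 CPM with hairpin 1 and 90.4, 93.1 and 93.3 CPM with hairpin 2, against 106, 102 and 108 CPM in shGFP. No knockdown library reached the shGFP range. YTHDF3 fell by 0.28 on the log2 scale with hairpin 1 (SE 0.04, edgeR adjusted p = 1.1e-08) and by 0.20 with hairpin 2 (SE 0.04, edgeR adjusted p = 1.5e-05). After correction for GC content and length the mean change was -0.09 (edgeR adjusted p = 0.0066), less than 0.5 times the uncorrected -0.24. With hairpin 1 the corrected change was -0.08 (edgeR adjusted p = 0.048), and the call was lost when a replicate block was added to the correction (edgeR adjusted p = 0.0505). Under the same correction YTHDF1, described next, passed with either hairpin.

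YTHDF1 (ENSG00000149658.18, chr20:63195429-63216234, minus strand), linked to translation of methylated messages, had 100.5, 97.3 and 95.3 CPM with hairpin 1 and 97.0, 97.0 and 97.4 CPM with hairpin 2, against 98.6, 104 and 106 CPM in shGFP. The hairpin 1 libraries overlapped shGFP, and the hairpin 2 libraries lay just below it. The log2 fold change was -0.08 for the mean of both hairpins (95% interval -0.14 to -0.02, edgeR adjusted p = 0.033), and neither hairpin alone passed, with adjusted p = 0.079 and 0.065 in the same edgeR fit. The call for the mean was lost under 9 of 19 alternatives.

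YTHDF2 (ENSG00000198492.16, chr1:28736621-28769775, plus strand), which brings the deadenylase complex CCR4-NOT to methylated messages, had 115, 121 and 118 CPM with hairpin 1 and 114, 117 and 118 CPM with hairpin 2, against 123, 123 and 125 CPM in shGFP. All 6 knockdown libraries lay below shGFP, by a few percent. The log2 fold change was -0.08 for the mean of both hairpins (95% interval -0.13 to -0.02, edgeR adjusted p = 0.023), -0.06 with hairpin 1 (edgeR adjusted p = 0.11) and -0.09 with hairpin 2 (edgeR adjusted p = 0.025). The call for the mean was lost under 5 of 19 alternatives. Within the YTHDF family the shares of summed TPM moved by a few points: YTHDF3 made up 19.02 ± 0.260% with hairpin 1 and 20.1 ± 0.112% with hairpin 2, against 21.4 ± 0.549% in shGFP (SD, n = 3 each).

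YTHDC2 (ENSG00000047188.16, chr5:113513683-113595285, plus strand), the helicase reader, had 44.4, 43.5 and 42.1 CPM with hairpin 1 and 46.3, 50.7 and 49.1 CPM with hairpin 2, against 49.5, 51.6 and 50.5 CPM in shGFP. The hairpin 1 libraries lay below all others, and the hairpin 2 libraries overlapped shGFP. YTHDC2 fell by 0.23 on the log2 scale with hairpin 1 (SE 0.05, edgeR adjusted p = 1.0e-04). With hairpin 2 the log2 fold change was -0.05 (95% interval -0.15 to 0.04, edgeR adjusted p = 0.41). After correction for GC content and length the hairpin 1 change was -0.03 (edgeR adjusted p = 0.58) and that for the mean of both hairpins was -0.02 (edgeR adjusted p = 0.72), so both calls were lost.

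YTHDC1 (ENSG00000083896.12, chr4:68310387-68350089, minus strand), the nuclear reader, is listed at 0 counts in all 9 libraries, and no level or change can be given for it. A count of 0 allows up to 3 counts, or 0.0938 to 0.159 CPM depending on the library, if reads of the gene were counted at all. In all, 3519 of 19910 protein-coding identifiers are listed at 0, among them markers of other cell types such as KRT5, CDH5 and CD3E. That count alone does not tell an uncounted gene from a silent one. Other genes that most cells use, NSF, INTS3, SCAMP3 and TFPT, are also listed at 0 (named after their values were seen). The entry is therefore not read as absence of YTHDC1 from these cells.

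**Figure D3:**
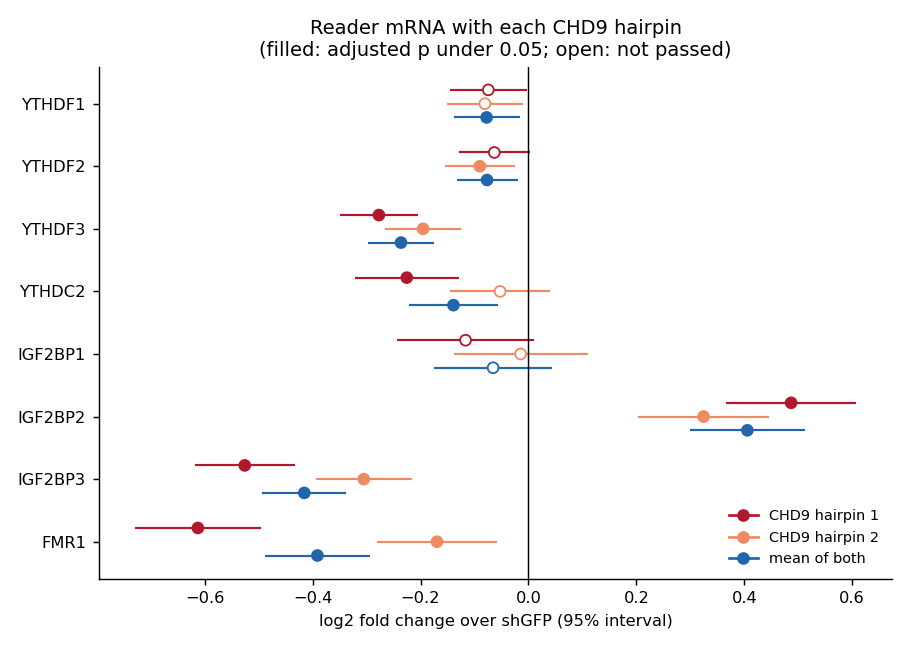
Log2 fold change over shGFP of the 8 readers tested, for CHD9 hairpin 1, CHD9 hairpin 2 and the mean of both, with 95% intervals from the edgeR fit (n = 3 libraries per group). Filled points passed an adjusted p of 0.05. FMR1, IGF2BP3 and YTHDC2 lie further from 0 with hairpin 1 than with hairpin 2, and IGF2BP2 does so in the other direction.

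Set directly against each other, hairpin 1 and hairpin 2 differed for 4 of the 8 readers, 1 higher and 3 lower with hairpin 1, where 29.2% of all genes tested differed, 15.6% higher and 13.6% lower. The difference of hairpin 1 minus hairpin 2 was -0.44 for FMR1 (SE 0.06, edgeR adjusted p = 5.0e-08) and -0.22 for IGF2BP3 (SE 0.05, edgeR adjusted p = 2.2e-04). It was -0.17 for YTHDC2 (SE 0.05, edgeR adjusted p = 0.0038) and 0.16 for IGF2BP2 (SE 0.06, edgeR adjusted p = 0.027). CHD9 itself differed by -0.28 (SE 0.07, edgeR adjusted p = 0.0024), being lower with hairpin 1. For YTHDF1, YTHDF2, YTHDF3 and IGF2BP1 the difference did not pass, with 95% intervals of -0.06 to 0.08, -0.04 to 0.09, -0.15 to -0.01 and -0.23 to 0.02 on the log2 scale. The YTHDC2 difference was -0.03 after correction for GC content and length (edgeR adjusted p = 0.70), and the IGF2BP2 call was lost under 7 of 19 alternatives.

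GC content moved with the comparison across all genes, and 4 of the 6 readers called lower are poor in GC. With the genes split into 5 equal groups by the GC content of the longest transcript, in the group lowest in GC 43.5% were called lower and 9.92% higher for the mean of both hairpins, with a median log2 fold change of -0.13. In the group highest in GC, 10.1% were called lower and 39.7% higher, with a median of 0.12. YTHDC2 (33.4% GC), FMR1 (35.7%), YTHDF3 (38.8%) and IGF2BP3 (40.5%) belong to the lowest group, which reaches 41.1%. YTHDF2 (47.5%), IGF2BP2 (48.7%), IGF2BP1 (49.6%) and YTHDF1 (51.9%) lie in the middle group or the next above it. With a smooth trend on GC content and length removed from each library, the mean change was 0.39 for IGF2BP2, -0.30 for IGF2BP3 and -0.25 for FMR1, against 0.41, -0.42 and -0.39 without the correction, and all 3 still passed (edgeR adjusted p = 1.1e-08, 1.7e-09 and 7.3e-06). IGF2BP1 passed with hairpin 1 after the correction (log2 fold change -0.16, edgeR adjusted p = 0.025), and YTHDF1 passed with either hairpin (-0.10 with hairpin 1 and -0.09 with hairpin 2). What sets the trend with GC content was not tested.

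**Figure D4:**
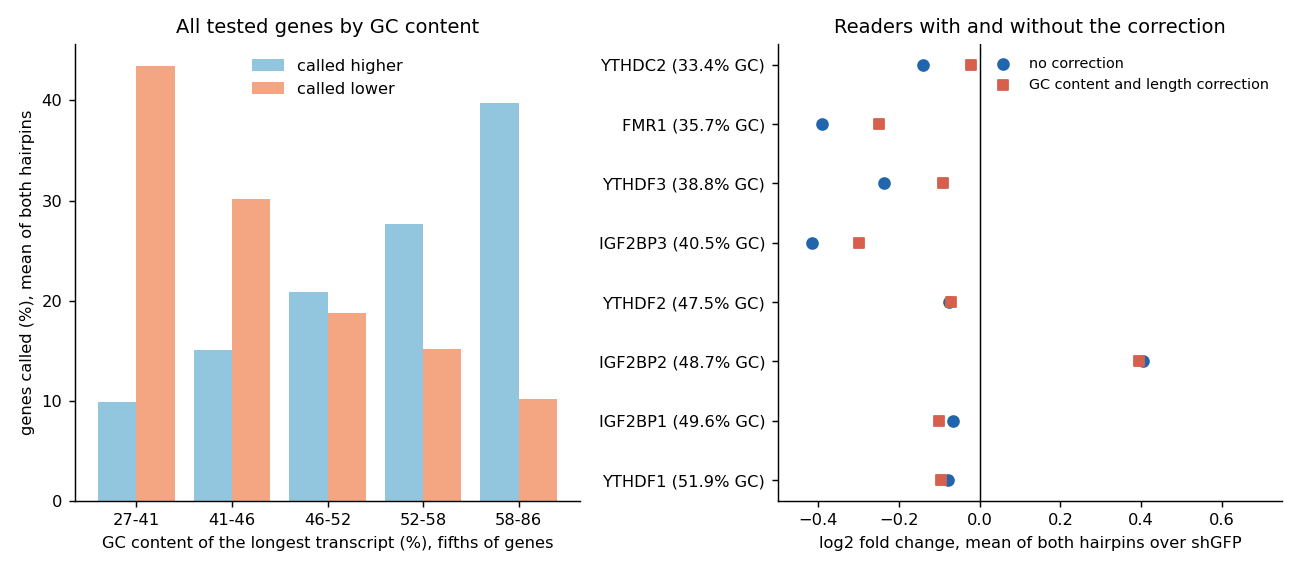
Left, share of all tested genes called higher or lower for the mean of both CHD9 hairpins over shGFP, in 5 equal groups by GC content of the longest transcript (%). Right, log2 fold change of each reader with and without the correction for GC content and length, ordered by GC content. The points of YTHDC2, YTHDF3, FMR1 and IGF2BP3 move toward 0, and that of IGF2BP2 stays near 0.4.

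The genes whose log2 CPM followed a reader most closely over the 9 libraries were looked up for the readers called with the highest and the lowest log2 fold change for the mean of both hairpins (with hairpin 1 alone FMR1 was lower than IGF2BP3), among 11176 genes of at least 5 CPM. Of these, symbols with the form of clone, pseudogene or noncoding RNA names were passed over. Any symbol ending in P and digits was passed over too, which also leaves out coding genes of that form. For IGF2BP2 these were SH3GL1, an endophilin gene (Pearson's r = 0.993), CCDC85C (0.992) and TRIR (0.990). For IGF2BP3 they were GMFB, a glia maturation factor gene (0.992), VPS41, a subunit of the HOPS tethering complex (0.992), and NRAS, a RAS gene (0.991). GMFB fell further than IGF2BP3, with 60.7 CPM under hairpin 1 and 79.3 CPM under hairpin 2, against 106 CPM in shGFP. SH3GL1 had 145 CPM with hairpin 1 and 132 CPM with hairpin 2, against 101 CPM in shGFP. The 9 points share libraries and fall into 3 groups, so r is given as a description.

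The messages of the writers of the mark, of their partner proteins and of the erasers moved unevenly. For the mean of both hairpins, 2 of 13 passed as higher and 7 as lower, beside 22.3% and 23.2% of all genes, with a median log2 fold change of -0.12. Hairpin 1 gave 1 higher and 6 lower, beside 23.9% and 23.4% of all genes. Hairpin 2 gave 2 higher and 7 lower, beside 17.2% and 18.5%. RBM15B, an adaptor of the writer complex, had 299 ± 9.77 CPM with hairpin 1 and 272 ± 4.45 CPM with hairpin 2, against 189 ± 4.55 CPM in shGFP (SD, n = 3 each; log2 fold change 0.60, edgeR adjusted p = 8.2e-24). Its paralogue RBM15 went the other way, at 25.4 ± 2.06 and 29.3 ± 2.41 CPM with hairpins 1 and 2, against 34.7 ± 1.19 CPM in shGFP (log2 fold change -0.35, edgeR adjusted p = 5.5e-07). METTL14, the partner of the catalytic METTL3, fell by 0.37 on the log2 scale (edgeR adjusted p = 2.7e-06), while METTL3 stood at 0.03 (edgeR adjusted p = 0.58). VIRMA, a scaffold of the complex, fell by 0.20 (edgeR adjusted p = 1.4e-06). Of the erasers, FTO fell by 0.14 (edgeR adjusted p = 1.1e-04) and ALKBH5 stood at -0.03 (edgeR adjusted p = 0.36). ALKBH5 passed as lower with hairpin 2 (-0.12, edgeR adjusted p = 0.0030) but not with hairpin 1 (0.05, edgeR adjusted p = 0.19). With the correction for GC content and length, METTL14 changed by -0.22 and VIRMA by -0.10. The list then had 4 members higher and 5 lower, beside 3460 and 3993 of 16855 genes.

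Among the relatives and partners of FMRP, 0 of 9 passed as higher and 3 as lower, beside 22.3% and 23.2% of all genes, with a median of -0.06. Hairpin 1 gave 1 higher and 3 lower, beside 23.9% and 23.4% of all genes. Hairpin 2 gave 0 higher and 2 lower, beside 17.2% and 18.5%. FXR1, an autosomal paralogue of FMR1, had 170.3 ± 0.868 CPM with hairpin 1 and 174 ± 6.25 CPM with hairpin 2, against 212 ± 2.83 CPM in shGFP (SD, n = 3 each; log2 fold change -0.30, edgeR adjusted p = 8.2e-14). FXR2, the other paralogue, had a log2 fold change of -0.02 (edgeR adjusted p = 0.62). NUFIP2, an FMRP-binding protein, had 166 ± 4.04 CPM with hairpin 1 and 222 ± 6.88 CPM with hairpin 2, against 223 ± 9.33 CPM in shGFP (log2 fold change -0.22, edgeR adjusted p = 3.3e-09). With hairpin 2 alone NUFIP2 was at -0.01 (edgeR adjusted p = 0.88), and its call for the mean was lost when the 6 knockdown libraries were fitted as 1 group (edgeR adjusted p = 0.16). CAPRIN1 and G3BP1, stress granule proteins, had log2 fold changes of -0.06 each, with edgeR adjusted p = 0.013 and 0.061. With the correction for GC content and length, FXR1 changed by -0.18 and NUFIP2 by -0.08, CAPRIN1 no longer passed, and G3BP1 passed as higher at 0.06. The list then had 2 members higher and 3 lower, beside 3460 and 3993 of 16855 genes.

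Of 8 further proteins proposed to read m6A, 2 passed as higher and 3 as lower, beside 22.3% and 23.2% of all genes, with a median of -0.03. There were 2 higher and 4 lower with hairpin 1, beside 23.9% and 23.4% of all genes. With hairpin 2 there were 2 higher and 3 lower, beside 17.2% and 18.5%. SND1, a Tudor domain nuclease, had 265 ± 5.99 CPM with hairpin 1 and 252 ± 9.61 CPM with hairpin 2, against 212 ± 2.56 CPM in shGFP (SD, n = 3 each; log2 fold change 0.29, edgeR adjusted p = 3.8e-13). ELAVL1, which encodes the message stabiliser HuR, rose by 0.19 on the log2 scale (edgeR adjusted p = 2.0e-08). EIF3A, a translation initiation subunit, and RBMX, a nuclear splicing protein, fell by 0.12 and 0.11 (edgeR adjusted p = 9.0e-06 and 1.1e-04). With the correction for GC content and length, RBMX was at 0.03 (edgeR adjusted p = 0.24). The list then had 4 members higher and 1 lower, beside 3460 and 3993 of 16855 genes.

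In the deadenylation and decay machinery with which YTHDF2 acts, 6 of 20 passed as higher and 8 as lower for the mean of both hairpins, beside 22.3% and 23.2% of all genes, with a median of -0.02. Counts were 6 higher and 7 lower with hairpin 1, beside 23.9% and 23.4% of all genes. With hairpin 2 they were 2 higher and 7 lower, beside 17.2% and 18.5%. XRN1, the main cytoplasmic exonuclease acting from the 5′ end, had 38.6 ± 1.79 CPM with hairpin 1 and 44.2 ± 0.886 CPM with hairpin 2, against 53.3 ± 2.38 CPM in shGFP (SD, n = 3 each; log2 fold change -0.37, edgeR adjusted p = 3.8e-10). DCP2, the decapping enzyme, fell by 0.30 (edgeR adjusted p = 4.4e-10). PAN2, a deadenylase, had 116 ± 0.657 CPM with hairpin 1 and 147 ± 1.80 CPM with hairpin 2, against 156 ± 0.424 CPM in shGFP (log2 fold change -0.25, edgeR adjusted p = 2.7e-11). CNOT7, a catalytic subunit of CCR4-NOT, rose by 0.20 (edgeR adjusted p = 1.7e-07), and CNOT1, the scaffold that YTHDF2 binds, had a log2 fold change of -0.01 (edgeR adjusted p = 0.85). With the correction for GC content and length, XRN1 changed by -0.25, DCP2 by -0.17 and CNOT7 by 0.33. The split of the list was again 6 higher and 8 lower, beside 3460 and 3993 of 16855 genes.

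Of the 6 partners of YTHDC1 and YTHDC2, 5 were tested, and 0 passed as higher and 3 as lower, beside 22.3% and 23.2% of all genes, with a median of -0.12. There were 0 higher and 3 lower with hairpin 1, beside 23.9% and 23.4% of all genes. With hairpin 2 there were 0 higher and 2 lower, beside 17.2% and 18.5%. The members called for the mean were XRN1, described above and listed here because YTHDC2 binds it, SRSF10 and MEIOC. SRSF10, a splicing factor, had a log2 fold change of -0.12 (edgeR adjusted p = 5.1e-04) and SRSF3, the splicing factor that YTHDC1 recruits, -0.05 (edgeR adjusted p = 0.066). MEIOC, the meiotic partner of YTHDC2 known from mouse, had 13.9 ± 0.720 CPM with hairpin 1 and 17.2 ± 1.26 CPM with hairpin 2, against 18.7 ± 0.533 CPM in shGFP (SD, n = 3 each; log2 fold change -0.27, edgeR adjusted p = 5.4e-04). MEIOC did not pass with hairpin 2 alone (log2 fold change -0.12, edgeR adjusted p = 0.21). Fitting the 6 knockdown libraries as 1 group lost the calls of MEIOC and SRSF10 for the mean (edgeR adjusted p = 0.052 each). RBM46 was listed with 1 count in all. With the correction for GC content and length SRSF10 (0.00) and MEIOC (-0.13) no longer passed, and SRSF3 passed as higher at 0.09. The list then had 1 member higher and 2 lower, beside 3460 and 3993 of 16855 genes.

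Of 7 proteins found with IGF2BP in messenger ribonucleoproteins, 2 passed as higher and 0 as lower for the mean of both hairpins, beside 22.3% and 23.2% of all genes, with a median of -0.02. The counts were 3 higher and 2 lower with hairpin 1, beside 23.9% and 23.4% of all genes. With hairpin 2 they were 1 higher and 0 lower, beside 17.2% and 18.5%. The members called for the mean were ELAVL1, described above, and PABPC1, the cytoplasmic poly(A)-binding protein, which had 1879 ± 14.7 CPM with hairpin 1 and 1579 ± 16.1 CPM with hairpin 2, against 1576 ± 10.0 CPM in shGFP (SD, n = 3 each; log2 fold change 0.13, edgeR adjusted p = 2.8e-08). With hairpin 2 alone the change of PABPC1 was 0.00 (edgeR adjusted p = 0.93), and the call for the mean was lost when the 6 knockdown libraries were fitted as 1 group (edgeR adjusted p = 0.13). HNRNPU and SYNCRIP, RNA-binding partners, had log2 fold changes of -0.03 and -0.04 and did not pass (edgeR adjusted p = 0.11 and 0.21), and SYNCRIP passed as higher at 0.11 with the correction for GC content and length. MATR3 is uncertain, since it has 2 identifiers with 8 and 447 counts over all libraries.

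Of 9 messages known to be bound by IGF2BP proteins, 6 were tested, and 4 passed as higher and 1 as lower for the mean of both hairpins, beside 22.3% and 23.2% of all genes, with a median of 0.22. With hairpin 1 the counts were 4 higher and 1 lower, beside 23.9% and 23.4% of all genes. With hairpin 2 they were 3 higher and 1 lower, beside 17.2% and 18.5%. HMGA1, a chromatin architecture gene, had 152 ± 4.68 CPM with hairpin 1 and 125 ± 1.40 CPM with hairpin 2, against 101 ± 3.40 CPM in shGFP (SD, n = 3 each; log2 fold change 0.44, edgeR adjusted p = 1.0e-16). MYC, the transcription factor gene, had 401 ± 2.07 CPM with hairpin 1 and 359.7 ± 5.97 CPM with hairpin 2, against 304 ± 4.43 CPM in shGFP (log2 fold change 0.32, edgeR adjusted p = 1.8e-16). CD44, a hyaluronan receptor gene, had 24.9 ± 0.398 CPM with hairpin 1 and 20.5 ± 0.744 CPM with hairpin 2, against 16.3 ± 0.521 CPM in shGFP (log2 fold change 0.47, edgeR adjusted p = 1.1e-08). HMGA2, a paralogue of HMGA1, had 7.29 ± 0.247 CPM with hairpin 1 and 8.04 ± 0.963 CPM with hairpin 2, against 10.1 ± 1.47 CPM in shGFP (log2 fold change -0.40, edgeR adjusted p = 5.0e-04). IGF2, H19 and LIN28B, the classic fetal targets, had 0 or 1 count in each library and were not tested. With the correction for GC content and length the list had 3 members higher and 2 lower, beside 3460 and 3993 of 16855 genes. HMGA1 was then at 0.31, MYC at 0.28, CD44 at 0.48 and HMGA2 at -0.31.

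**Figure D5:**
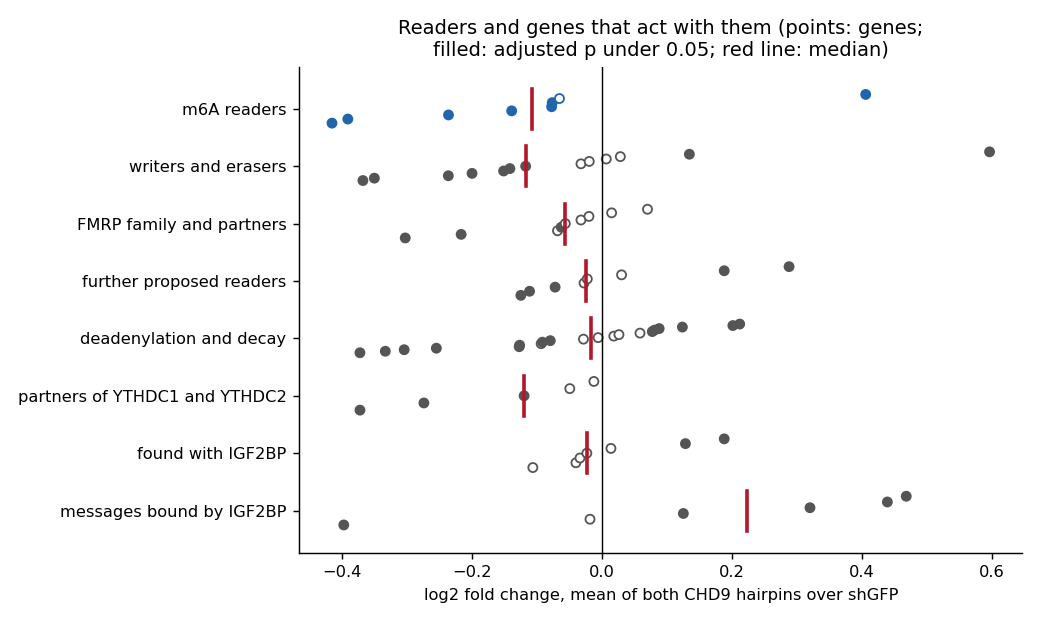
Log2 fold change for the mean of both CHD9 hairpins over shGFP of the readers and of genes in 7 lists that act with them. Points are genes, filled where the adjusted p was under 0.05, and red lines are list medians. RBM15B, CD44, HMGA1 and IGF2BP2 are the 4 highest points, and the median of the messages bound by IGF2BP proteins, at 0.22, lies above that of the readers, at -0.11.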

How the data were processed

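RNA was sequenced from 9 libraries of 22Rv1 cells. The authors deposited raw read counts per gene in a table of all libraries, unpooled and not normalised. Per the submitters' processing notes, Trim Galore, STAR, hg38 and DESeq2 were used, and per the labels' protocols the library kit was directional; which counter, strand setting and annotation were used is not given in the sources used here. Of 67071 identifiers, 60704 gained a symbol from a gene name table or GENCODE 29, whose GRCh38 coordinates are printed. RefSeq (GRCh38.p14) supplied promoters.

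Genes kept by filterByExpr (minimum count 10), 16855 in all, were scaled by TMM and fitted with edgeR 4.0.16 (R 4.3.3), with a mean for each group over all 9 libraries. Adjusted p under 0.05 was called. CPM use the scaled totals, and TPM the length of all annotated exons of a gene. Total counts of 18911142 to 31968602 set the precision, together with the spread between replicates. The coefficient of variation beyond counting noise, which edgeR estimated in common for all genes, was 2.74%, and the full spread of a gene is larger. The code was tested on simulated data. GC content and length were known for 97.8% of tested genes. Alternatives used DESeq2 1.42.0, limma 3.58.1, other filters, thresholds and samples, a replicate block and a correction for GC content and length.

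Named genes are the readers, CHD9, in each list the 4 members (or fewer) of smallest p for the mean of both hairpins, and the 3 genes most like IGF2BP2 and IGF2BP3 among symbols not passed over. Others are named in passing. Members and lists were chosen with earlier results of these data known. ELAVL1 and XRN1 are each in 2 lists. Reads from near-identical copies are uncertain: 8.72% of 50-base windows of YTHDF2 also occur in YTHDF2P1 and 6.45% of those of IGF2BP2 in unnamed loci. For IGF2BP3, 21.9% of windows occur elsewhere on either strand, mostly in MALSU1, which overlaps it at the same locus on the opposite strand. RBMX, PABPC1 and HMGA1 have processed copies.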

Additional observations from a re-analysis of the deposited data

Results flagged for a closer look

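The effect of the hairpins differed between hairpin 1 and hairpin 2 by a direct test for 4 readers and CHD9, which is what drew attention to them. The log2 difference of hairpin 1 minus hairpin 2 was -0.44 for FMR1, -0.22 for IGF2BP3, -0.17 for YTHDC2, 0.16 for IGF2BP2 and -0.28 for CHD9 (edgeR quasi-likelihood test, Benjamini-Hochberg adjustment, adjusted p of 0.027 or lower for each). FMR1 averaged 27.1 ± 1.78 CPM with hairpin 1 and 37.0 ± 1.55 CPM with hairpin 2 (SD, n = 3 each). The CHD9 level and the hairpin sequence cannot be told apart in this design. No group had the 4 libraries that a test for a library standing apart needs.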

How the results depend on the processing

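Over 19 alternatives, IGF2BP2, IGF2BP3, FMR1 and YTHDF3 kept their direction and call for the mean of both hairpins, with log2 fold changes of 0.35 to 0.45, -0.44 to -0.30, -0.43 to -0.25 and -0.26 to -0.09. The call of YTHDF1 was lost under 9 (adjusted p 0.0047 to 0.23), of YTHDF2 under 5 (0.018 to 0.12) and of YTHDC2 under 3 (0.0026 to 0.72). IGF2BP1 did not pass under any (0.11 to 0.77). No reader changed sign where it was called. The difference of YTHDF3 between hairpins, which did not pass, was 0.02 with the correction for GC content and length, against -0.08 without it. The cause of these changes was not tested.

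With the compared groups alone, where the 6 knockdown libraries form 1 group that spans both hairpins, 4 readers were called for the mean (1 higher, 3 lower), 1 FMRP relative, 8 decay genes, 1 YTHDC partner and 1 protein found with IGF2BP, while 5272 of 16855 genes were called in all, against 7675 otherwise. At an adjusted p under 0.01, 3 readers were called with hairpin 2, where 4399 of 16855 genes were called, against 6009 at 0.05. For the mean, 8 decay genes were called at 0.01, where 6084 genes were called, against 7675 at 0.05. The correction for GC content and length gave 5 FMRP relatives, with or without the replicate block, where 7469 and 7453 of 16855 genes were called. With both, the CHD9 difference between hairpins was -0.18 (adjusted p = 0.055). Under that correction, alone or with the block, RBMX (0.032 and 0.032), G3BP1 (0.060 and 0.060), SRSF3 (0.090 and 0.090) and SYNCRIP (0.108 and 0.107) changed sign, and so did HNRNPU (0.014 and 0.014); RBMX and HNRNPU did not pass there.

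Leaving out each library in turn gave 5 to 7 readers for the mean, 5 to 7 with hairpin 1, 3 to 6 with hairpin 2 and 2 to 6 between hairpins. Over all genes the calls were 6625 to 7573, 7128 to 8106, 5133 to 5977 and 3940 to 4944, of 17065 to 17328 tested. The count of 3 readers came without shCHD9_2 replicate 1 or shGFP replicate 3, and that of 2 without shCHD9_2 replicate 2. CHD9 ranged from -0.43 to -0.34, -0.58 to -0.49, -0.29 to -0.20 and -0.34 to -0.25, and was not called with hairpin 2 without shGFP replicate 3.

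With the longest transcript as length, shGFP levels were 79.5 TPM for YTHDF1, 108 for YTHDF2, 52.0 for YTHDF3, 19.3 for YTHDC2, 9.79 for IGF2BP1, 38.9 for IGF2BP3 and 21.9 for FMR1. Libraries with the same replicate number did not deviate together (r of -0.02 to 0.04 over 9 pairs, 3 libraries closest to their own number). These values show no sign that the numbers pair samples. They cannot exclude pairing, since each group has only 3 libraries, which differ little from each other. The replicate block called 7669 genes for the mean, against 7675 without it, and 7 readers either way.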
